A study of Homo sapiens with 12 samples.

Results

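Stearoyl-CoA desaturase (SCD) and 9 further genes that make, desaturate, elongate or activate long-chain fatty acids were followed in 2 human B-cell precursor leukemia lines, NALM-6 and REH, kept in cerebrospinal fluid or in ordinary medium. The 10 genes (SCD, FASN, ACACA, ACLY, ACSS2, FADS1, FADS2, ELOVL5, ELOVL6 and ACSL3) were chosen by name with earlier results of these data known, and each symbol matched 1 of the 60617 rows of the expression table. There were 4 groups of 3 RNA-seq libraries, 12 in all, each grown for 48 h: NALM-6 in human cerebrospinal fluid (CSF), NALM-6 in RPMI with 10% fetal calf serum (RPMI), REH in CSF and REH in RPMI. The series title concerns methotrexate in CSF, and the labels of these libraries name no drug. Each line is a single established line, so a difference between REH and NALM-6 is a difference between those lines and not between classes of leukemia. Whether the 3 libraries of a group are separate cultures is not stated in the labels, and the p-values therefore cover only the variation among the libraries sequenced, part or all of which may be technical.

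Cells build fatty acids from acetyl-CoA. ACLY makes cytosolic acetyl-CoA from citrate and ACSS2 makes it from acetate, ACACA carboxylates it to malonyl-CoA, and FASN joins these units into palmitate. ELOVL6 lengthens palmitate to stearate, SCD puts the first double bond into stearate and palmitate to give oleate and palmitoleate, FADS1, FADS2 and ELOVL5 process polyunsaturated fatty acids, and ACSL3 couples free fatty acids to coenzyme A. The sterol regulatory element-binding proteins (SREBF1 and SREBF2, held back by the INSIG proteins and escorted by SCAP) drive the transcription of much of this pathway, and the liver X receptors drive SREBF1 and SCD. Serum brings lipids with it, while CSF holds far less protein and lipid than serum.

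SCD lies at chr10:100347124-100364834 on the plus strand (GRCh38, GENCODE release 29, which all gene coordinates here follow) and ELOVL6 at chr4:110045846-110199199 on the minus strand. ACSS2 lies at chr20:34872146-34927962 on the plus strand. The promoter windows of these 3 genes are shown because SCD and ELOVL6 were the members with far lower levels in REH than in NALM-6, and ACSS2 was the member called higher in CSF in both lines. The sequences are the 250 bases before a RefSeq transcription start (GRCh38.p14), 5′ to 3′ on the gene's strand, with the CCAAT box (CCAAT), the GC box (GGGCGG), the E-box (CACGTG) and their reverse complements in capitals. In GENCODE release 29 the SCD and ACSS2 genes begin upstream of the ends of these windows, and the ELOVL6 window lies inside the annotated gene.
SCD, chr10:100346983-100347232, plus strand: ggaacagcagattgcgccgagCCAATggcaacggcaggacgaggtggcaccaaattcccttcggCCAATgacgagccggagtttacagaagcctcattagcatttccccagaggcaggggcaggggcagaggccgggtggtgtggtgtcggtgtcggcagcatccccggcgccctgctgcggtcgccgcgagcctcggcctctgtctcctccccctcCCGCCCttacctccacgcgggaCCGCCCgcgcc
ELOVL6, chr4:110198616-110198865, minus strand: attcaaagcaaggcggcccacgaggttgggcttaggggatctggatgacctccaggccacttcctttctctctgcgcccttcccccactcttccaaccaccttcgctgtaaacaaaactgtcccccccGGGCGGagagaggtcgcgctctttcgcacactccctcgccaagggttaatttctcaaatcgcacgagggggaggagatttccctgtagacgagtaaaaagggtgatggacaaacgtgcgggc
ACSS2, upstream start, chr20:34874739-34874988, plus strand: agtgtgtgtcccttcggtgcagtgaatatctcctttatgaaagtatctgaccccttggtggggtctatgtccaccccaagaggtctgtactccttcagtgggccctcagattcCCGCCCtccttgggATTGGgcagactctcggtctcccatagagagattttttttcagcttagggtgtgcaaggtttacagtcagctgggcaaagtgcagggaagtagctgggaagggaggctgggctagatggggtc
ACSS2, downstream start, chr20:34876362-34876611, plus strand: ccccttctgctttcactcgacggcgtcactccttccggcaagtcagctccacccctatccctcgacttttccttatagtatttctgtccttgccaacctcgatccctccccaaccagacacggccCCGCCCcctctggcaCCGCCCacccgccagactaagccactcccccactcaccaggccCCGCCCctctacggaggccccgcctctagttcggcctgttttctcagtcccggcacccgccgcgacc

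The SCD window held 2 CCAAT boxes, at bases -229 to -225 and -186 to -182 counted from the start, and 2 GC boxes in reverse complement nearer to the start. Its bases were 68% G or C with 23 CpG, against a median of 11 CpG over all 35116 promoter windows of the same length. The ELOVL6 window held 1 GC box and no CCAAT box. A RefSeq window was found for 9 of the 10 genes, some with more than 1 start, 14 windows in all. A CCAAT box stood in 8 of the 14 windows (6 of the 9 genes) and in 32% of all windows. A GC box stood in 11 of the 14 (8 genes) and in 42.6% of all windows, and an E-box in 1 of the 14, of ELOVL5, and in 6.34% of all windows. The sterol regulatory element letters TCACNCCAC, searched on both strands, stood in 0 of the 14 windows and in 0.883% of all windows, which says only that these letters are not in these windows. A match is a description of letters and not a binding site.

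The libraries held between 23412869 and 37146556 reads. CPM are reads of a gene scaled to a total of 1000000 reads in a library, and 3 reads, taken here as the floor, are worth 0.0808 to 0.128 CPM. All 12 B-lymphoblast marker genes reached 1 CPM in some library, although VPREB1 was close to 0 in REH. Their summed level was 4888 to 5008 CPM in NALM-6 CSF and 5361 to 5783 CPM in NALM-6 RPMI, and 3092 to 3491 CPM in REH CSF and 5509 to 5638 CPM in REH RPMI. Of 21 markers of other cell types 4 reached 1 CPM (LYZ, ITGAM, MPO and MBP) and 9 had no read, among them CD3D, HBB, TTR, ADIPOQ and EPCAM. Their summed level was 120 to 129 CPM in NALM-6 CSF against 34.6 to 109 CPM in NALM-6 RPMI, and 152 to 210 CPM in REH CSF against 102 to 107 CPM in REH RPMI. The part of these markers in the results below was not tested.

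Replicate 1 of NALM-6 RPMI and replicate 3 of REH CSF stood apart from the other libraries of their groups. Ribosomal protein genes took 21.9% of the reads of NALM-6 RPMI 1, against 8.53% and 7.74% in its replicates, and 10.3% of the reads of REH CSF 3, against 5.72% and 6.25%. In both libraries long transcripts were low: the median gene over 8 kb stood 1.5 log2 units below the replicates in NALM-6 RPMI 1, while genes under 1 kb stood 0.49 above them. The members have principal transcripts of 2.83 kb (ELOVL5) to 9.55 kb (ACACA). In NALM-6 RPMI 1 all 10 were below the mean of the replicates, from 24.2% of it for FASN to 84.8% for ACSS2, with SCD at 40.2%. In REH CSF 3 the 9 members other than SCD stood between 45.1% (ACACA) and 103% (FADS2). Differences of the members are therefore given with all 12 libraries and again without these 2.

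**Figure D1:**
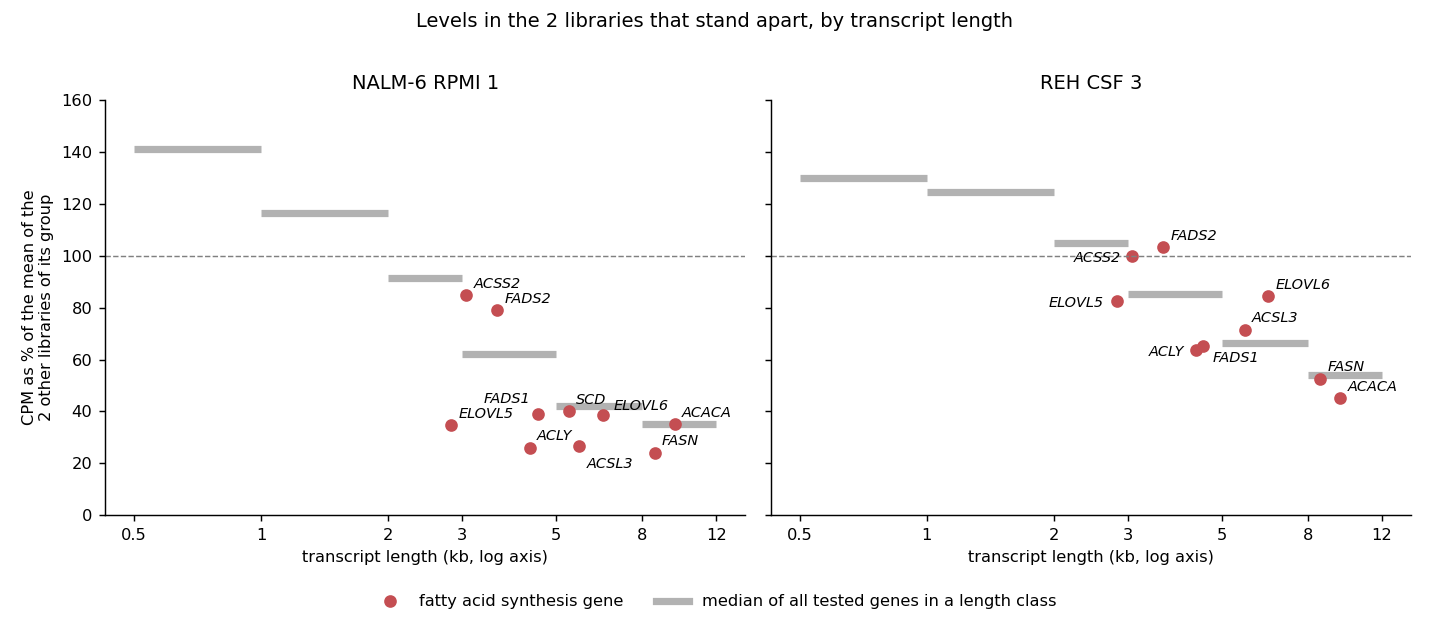
Level of each gene in NALM-6 RPMI 1 and REH CSF 3 as a percentage of the mean CPM of the other 2 libraries of its group, against transcript length in kb on a log axis. Grey bars are the medians of all tested genes in 6 length classes (from log2 of CPM + 1; the first and last class have no outer limit and are drawn to 0.5 and 12 kb); SCD is left out of the REH panel because it had almost no reads there, and most points lie below 100%.

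SCD was abundant in NALM-6 and almost absent from REH. In CSF the 3 REH libraries held 0.0391, 0.214 and 0.0346 CPM of SCD, against 374, 401 and 401 CPM in NALM-6. In RPMI the 3 REH libraries held 0.140, 0.141 and 0.132 CPM, against 175, 419 and 451 CPM in NALM-6. The ranges of the lines were far apart in both media, and every REH value was near or below the level that 3 reads are worth. In bulk RNA a lower level in every cell and fewer expressing cells cannot be told apart. Summed over 3 libraries, SCD had 7 reads in REH CSF against 33990 in NALM-6 CSF, and 12 reads in REH RPMI against 35425 in NALM-6 RPMI. The level in NALM-6 was 4364 times that in REH in CSF (95% exact interval for counting error only, 2118 to 10856) and 2611 times in RPMI (1495 to 5055). Fitted with limma over all 14364 tested genes, REH minus NALM-6 was -8.49 ± 0.29 log2 in CSF (SE, n = 3 each, adjusted p = 1.27e-09) and -8.14 ± 0.29 in RPMI (adjusted p = 2.18e-09). These fitted values are on the scale of log2(CPM + 1), and the pseudocount of 1 CPM keeps them smaller than the ratios of reads. Without the 2 libraries that stand apart they were -8.45 and -8.58.

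Few abundant genes showed this pattern. Of 2327 tested genes outside chromosome Y with a mean above 100 CPM in NALM-6, 24 had a mean under 1 CPM in REH, and SCD had the fifth-highest NALM-6 level of these. The 4 above it were IGLC7, TCL1A, IGLV2-14 and TAGLN2, of which the first and the third are immunoglobulin lambda genes. Neighbours of SCD differed in level. CWF19L1, which ends 79.4 kb away, averaged 59.2 ± 7.09 CPM in REH CSF against 61.2 ± 2.79 CPM in NALM-6 CSF, and 49.4 ± 2.52 CPM in REH RPMI against 66.2 ± 19.4 CPM in NALM-6 RPMI (SD, n = 3 each). BLOC1S2, 60.4 kb away, averaged 100.5 CPM in REH CSF and 32.7 CPM in REH RPMI. PKD2L1, 16.6 kb away, was at or under 0.265 CPM in every library of both lines. No annotated gene overlaps SCD, and its pseudogene SCDP1 had no read in REH and at most 0.350 CPM in NALM-6. Whether the SCD gene is intact in REH was not tested.

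SCD5, a second stearoyl-CoA desaturase with a separate gene on chromosome 4, showed the opposite order (it was chosen after its values were seen). It had 86.4, 81.4 and 71.6 CPM in REH CSF, against 29.9, 33.7 and 35.2 CPM in NALM-6 CSF. In RPMI it had 56.7, 51.1 and 52.9 CPM in REH, against 9.87, 23.9 and 21.5 CPM in NALM-6. The lines did not overlap in either medium. REH minus NALM-6 was 1.25 ± 0.26 log2 in CSF (limma, adjusted p = 0.00281) and 1.58 ± 0.26 in RPMI (adjusted p = 6.13e-04), and 1.33 and 1.20 without the 2 libraries. CSF minus RPMI of SCD5 did not pass with all libraries: 0.89 ± 0.26 in NALM-6 and 0.56 ± 0.26 in REH (limma, adjusted p = 0.0526 and 0.221). Without the 2 libraries it passed, at 0.52 and 0.64 (adjusted p = 4.65e-04 and 7.17e-05). Per kb of transcript, SCD5 in REH stayed below SCD in NALM-6: 25.7 CPM per kb in REH CSF against 73.1 CPM per kb of SCD in NALM-6 CSF, and 17.3 CPM per kb in REH RPMI against 64.9 CPM per kb of SCD in NALM-6 RPMI.

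ELOVL6, the elongase that supplies the stearate SCD acts on, was, with all 12 libraries, the only other member called lower in REH in both media. It had 5.40, 5.42 and 4.56 CPM in REH CSF, against 39.9, 38.6 and 43.0 CPM in NALM-6 CSF. In RPMI it had 7.99, 8.20 and 8.76 CPM in REH, against 17.7, 43.6 and 48.5 CPM in NALM-6, where the 17.7 came from the library that stands apart. No REH library reached any NALM-6 library. REH minus NALM-6 was -2.76 ± 0.30 log2 in CSF (limma, adjusted p = 1.78e-05) and -1.89 ± 0.30 in RPMI (adjusted p = 4.05e-04), and -2.69 and -2.34 without the 2 libraries.

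ACSS2 and FADS2 were higher in REH. ACSS2, the acetate-using acetyl-CoA synthetase, had 45.9, 51.4 and 48.5 CPM in REH CSF against 23.8, 26.6 and 23.7 CPM in NALM-6 CSF, and 34.6, 35.7 and 32.5 CPM in REH RPMI against 11.6, 13.7 and 13.5 CPM in NALM-6 RPMI. Its 4 groups did not overlap. REH minus NALM-6 was 0.95 ± 0.12 log2 in CSF (limma, adjusted p = 6.41e-05) and 1.34 ± 0.12 in RPMI (adjusted p = 4.24e-06), and 0.95 and 1.27 without the 2 libraries. FADS2, the delta-6 desaturase, had 353, 408 and 393 CPM in REH CSF against 270, 248 and 260 CPM in NALM-6 CSF, and 397, 375 and 363 CPM in REH RPMI against 200, 256 and 248 CPM in NALM-6 RPMI. The difference was 0.57 ± 0.13 log2 in CSF (limma, adjusted p = 0.00443) and 0.70 ± 0.13 in RPMI (adjusted p = 0.00124), and 0.55 and 0.58 without the 2 libraries. A correction for transcript length, added after seeing the data, ended the FADS2 call in RPMI (0.31 log2, adjusted p = 0.0832). FADS2 overlaps exons of FADS1 on the opposite strand and of FEN1, a DNA repair nuclease gene, on its own strand, and how the authors' counting shared such reads is not given in the sources used here. FEN1 averaged 416 ± 69.0 CPM in REH CSF and 336 ± 8.76 CPM in NALM-6 CSF, and 242 ± 12.1 CPM in REH RPMI and 304 ± 63.7 CPM in NALM-6 RPMI.

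Counted over the 10 members, 2 were higher (ACSS2 and FADS2) and 2 lower (SCD and ELOVL6) in REH in CSF, where 24.5% of all tested genes were called higher and 13.4% lower. In RPMI also ACSS2 and FADS2 were higher and SCD and ELOVL6 lower, against 26.4% of all tested genes higher and 13.5% lower. These shares of the members are near the background, and it is the size of the SCD difference that stands out. The median member difference was -0.39 log2 in CSF, against 0.05 over all tested genes, and 0.58 in RPMI, against 0.26. Without the 2 libraries 3 members were higher and 5 lower in CSF, against 39.8% and 29.2% of all tested genes. In RPMI 3 were higher and 3 lower, against 39.6% and 27.5%. The genes added without those libraries were FASN (0.27 log2, higher) and ACACA (-0.30), ACLY (-0.18) and FADS1 (-0.32, lower) in CSF, and ELOVL5 (0.21, higher) and ACACA (-0.20, lower) in RPMI. All 6 of these differences were small beside those of SCD and ELOVL6. FASN in CSF did not pass with only REH CSF 3 left out (limma, adjusted p = 0.788). Nor did ACACA in RPMI with only NALM-6 RPMI 1 left out (adjusted p = 0.586).

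**Figure D2:**
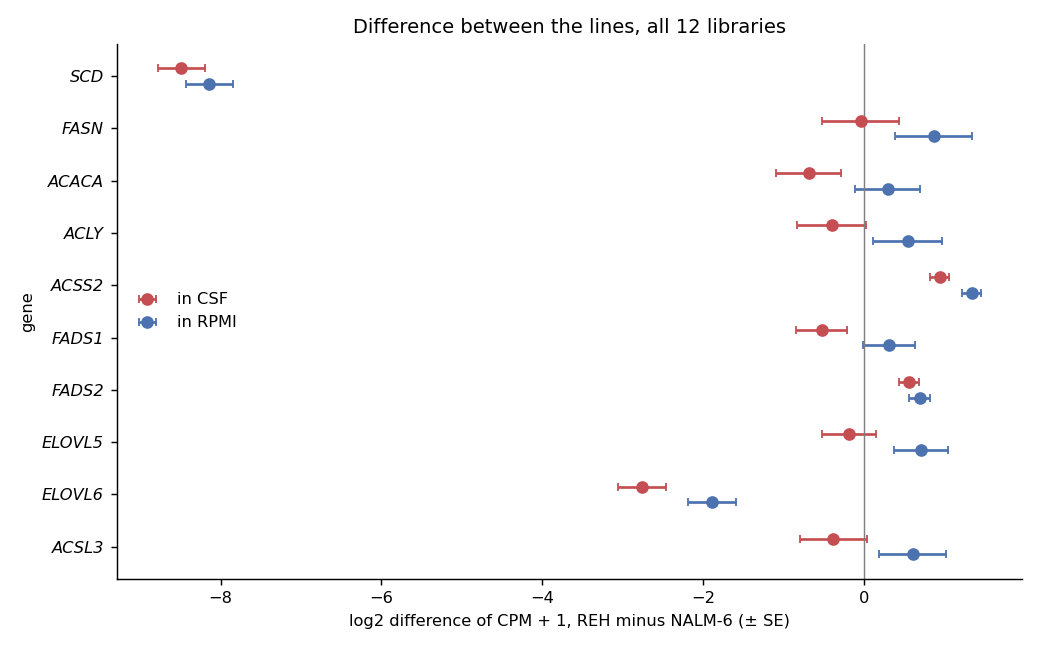
Difference between REH and NALM-6 in log2 of CPM + 1 (x axis) for each of the 10 genes, in CSF (red) and RPMI (blue), with all 12 libraries; bars are ± SE of the limma fit. SCD lies at -8.49 and -8.14, ELOVL6 at -2.76 and -1.89, and the other 8 genes between -0.68 and 1.34.

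In CSF, ACSS2 was the member whose level changed in both lines. It was higher in all 3 CSF libraries than in any RPMI library of the same line. In NALM-6 it averaged 24.7 ± 1.61 CPM in CSF and 12.9 ± 1.20 CPM in RPMI, and in REH 48.6 ± 2.76 CPM in CSF and 34.3 ± 1.61 CPM in RPMI (SD, n = 3 each). CSF minus RPMI was 0.89 ± 0.12 log2 in NALM-6 (limma, adjusted p = 9.16e-04) and 0.49 ± 0.12 in REH (adjusted p = 0.0182). Without the 2 libraries it was 0.81 (adjusted p = 1.35e-05) and 0.49 (adjusted p = 4.11e-04). The NALM-6 replicate numbers were taken to pair the libraries, though the data do not tell numbers 2 and 3 apart. With that block the NALM-6 call held (limma, adjusted p = 0.0213). It was lost under quantile normalization (0.39 log2, adjusted p = 0.132) and with the length correction and the block together (0.58 log2, adjusted p = 0.0533). In REH the call was lost in 8 of 24 alternatives, among them median-of-ratios scaling (0.41 log2, adjusted p = 0.0600), with the direction kept in all 24. The response in REH minus that in NALM-6 was -0.40 ± 0.17 log2, which did not pass (adjusted p = 0.274).

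Of the 10 members, 1 was called higher and 0 lower in CSF in NALM-6, where 10.9% of all tested genes were called higher and 1.23% lower. At an unadjusted p under 0.05 limma gave 3 higher (ACSS2, FADS1 and ELOVL5) and 0 lower, and edgeR on the recovered reads called 1 higher and 0 lower. With the replicate block 864 genes were called in NALM-6 in place of 1742, and the member count stayed at 1. In REH also 1 was called higher and 0 lower, against 13.2% and 1.71% of all tested genes, with SCD, near the level of 3 reads, among those not called. At an unadjusted p under 0.05 limma gave 1 higher and 0 lower in REH, and edgeR called 1 higher (ACSS2) and 1 lower (ELOVL6). The median member difference was 0.45 log2 in NALM-6, against 0.25 over all tested genes, and -0.15 in REH, against 0.07. The REH median lies midway between ACSL3 (-0.25) and SCD, whose level there was near that of 3 reads. No member passed the test of a different response in the lines by limma or by edgeR, where 3.03% of all tested genes were called higher and 1.2% lower in limma; at an unadjusted p under 0.05 there was 1, ACSS2.

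Without the 2 libraries that stand apart, more genes passed throughout. In NALM-6, 29.8% of all tested genes were then called higher and 11% lower, and in REH 32.1% and 13.7%. Of the members, 3 were then higher and 2 lower in NALM-6, and 2 higher and 3 lower in REH. The shares of members called higher are near those of all tested genes, and 2 and 3 of 10 called lower are above theirs, by 1 or 2 genes. ACSS2 and FADS1 were higher and ACLY was lower in both lines. These fits set 3 CSF libraries against 2 RPMI libraries in NALM-6, and 2 against 3 in REH. The spread is shared, so leaving out a library of 1 line also changes it for the other. With only its own line's library left out, each difference was the same, but of these calls only ACSS2 passed. For FASN in NALM-6 the adjusted p was then 0.444, and for FADS1 0.0822 in NALM-6 and 0.837 in REH (limma). The calls other than ACSS2 thus needed the other line's library left out as well.

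FADS1, the delta-5 desaturase of polyunsaturated fatty acids, had 233, 230 and 233 CPM in NALM-6 CSF against 65.9, 168 and 169 CPM in NALM-6 RPMI. It had 196, 176 and 121 CPM in REH CSF against 150, 162 and 151 CPM in REH RPMI. In NALM-6 the media did not overlap, while in REH the lowest CSF value, from the library that stands apart, lay below all RPMI values. The difference was 0.91 ± 0.32 log2 in NALM-6 (limma, adjusted p = 0.0950) and 0.06 ± 0.32 in REH (adjusted p = 0.944). Without the 2 libraries FADS1 rose by 0.46 ± 0.06 in NALM-6 (adjusted p = 7.88e-05) and by 0.27 ± 0.06 in REH (adjusted p = 0.00252).

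ELOVL5, the elongase that works with the FADS enzymes, had 178, 172 and 180 CPM in NALM-6 CSF against 46.9, 137 and 134 CPM in NALM-6 RPMI. In REH it had 188, 147 and 138 CPM in CSF against 158, 160 and 152 CPM in RPMI. The media were separate in NALM-6 and overlapped in REH. The difference in NALM-6 was 0.89 ± 0.34 log2 (limma, adjusted p = 0.113), and without the 2 libraries 0.38 ± 0.08 (adjusted p = 0.00345). In REH the difference was -0.0024 with all libraries (limma, unadjusted p = 0.9945) and 0.09 without the 2 (adjusted p = 0.434). The difference between the lines' responses without the 2 libraries was -0.30 (adjusted p = 0.116).

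FADS2 did not pass the test in either line. CSF minus RPMI was 0.15 ± 0.13 log2 in NALM-6 (limma, adjusted p = 0.403) and 0.02 ± 0.13 in REH (adjusted p = 0.955), and 0.04 and 0.00 without the 2 libraries. ACSL3, the acyl-CoA synthetase found on the endoplasmic reticulum and lipid droplets, had 83.4, 89.7 and 92.0 CPM in NALM-6 CSF against 21.6, 79.1 and 83.0 CPM in NALM-6 RPMI, and 87.7, 64.7 and 54.5 CPM in REH CSF against 77.4, 81.8 and 82.5 CPM in REH RPMI. Its differences of 0.74 ± 0.42 log2 in NALM-6 and -0.25 ± 0.42 in REH did not pass (limma, adjusted p = 0.230 and 0.794), nor did 0.12 and -0.10 without the 2 libraries.

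**Figure D3:**
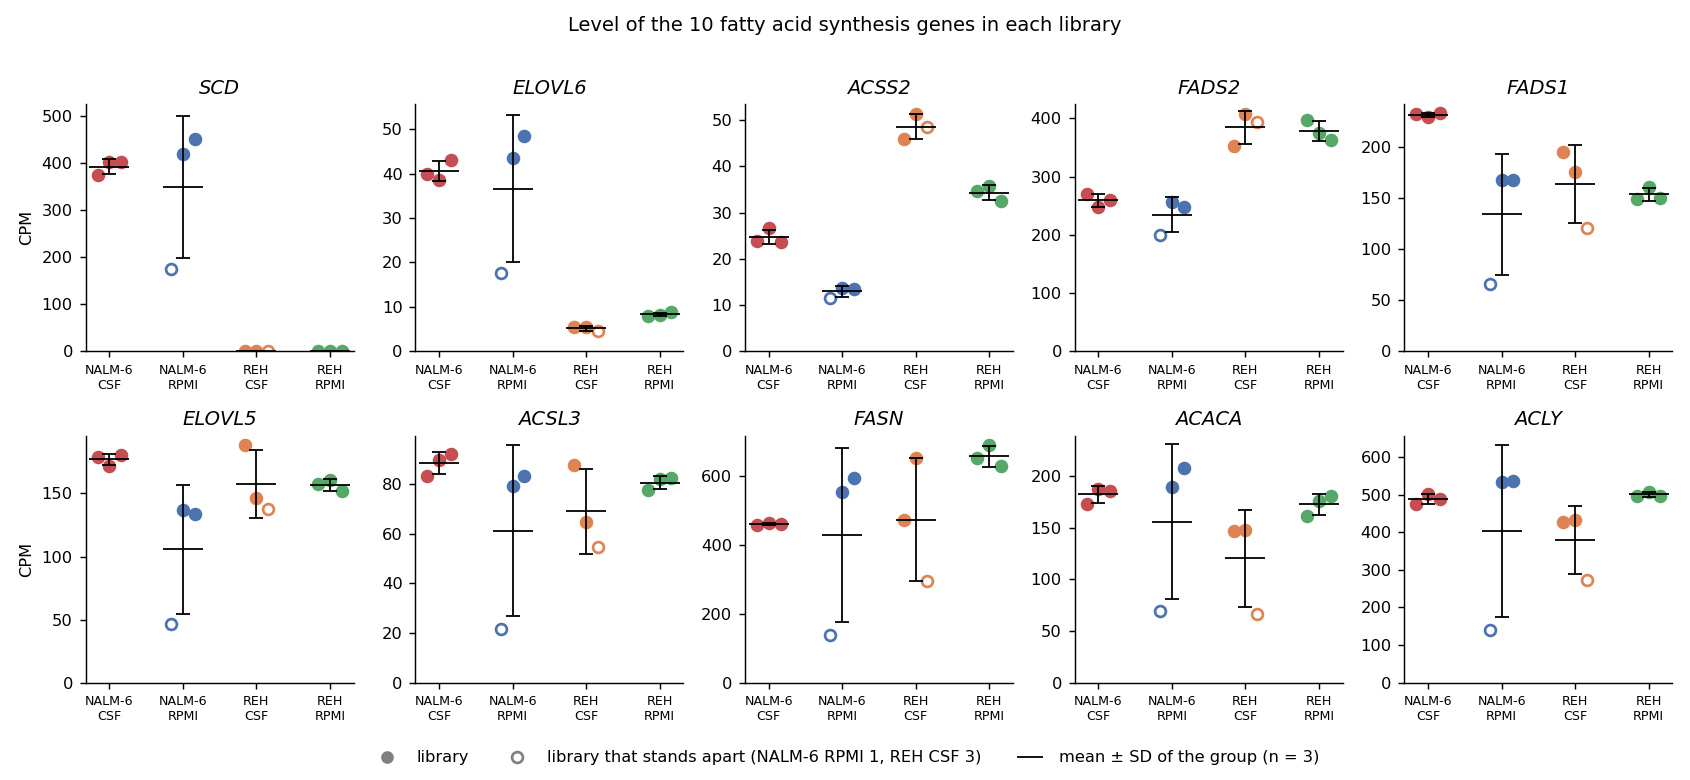
CPM of each of the 10 genes in each library, with CSF left of RPMI in each line; open circles are the 2 libraries that stand apart, and bars give the group mean ± SD (n = 3). SCD and ELOVL6 are low in REH, ACSS2 is higher in CSF in both lines, and for 8 of the genes the open circle of NALM-6 RPMI lies far below its replicates.

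The enzymes of palmitate synthesis showed how far 1 library sets the direction. FASN had 457, 464 and 459 CPM in NALM-6 CSF against 138, 553 and 592 CPM in NALM-6 RPMI. The CSF values lay between the RPMI library that stands apart and its 2 replicates. With all libraries the difference was 0.36 ± 0.48 log2 (limma, adjusted p = 0.594), and without the 2 libraries it was -0.32 ± 0.10 (adjusted p = 0.0267). In REH FASN had 471, 650 and 295 CPM in CSF against 651, 687 and 628 CPM in RPMI, a difference of -0.54 ± 0.48 (adjusted p = 0.580), and -0.24 without them (adjusted p = 0.0707).

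ACLY had 476, 501 and 489 CPM in NALM-6 CSF against 140, 534 and 536 CPM in NALM-6 RPMI. In REH it had 428, 433 and 274 CPM in CSF against 497, 508 and 497 CPM in RPMI, and every REH CSF value lay below every REH RPMI value. CSF minus RPMI was 0.51 ± 0.43 log2 in NALM-6 and -0.43 ± 0.43 in REH with all libraries (limma, adjusted p = 0.396 and 0.634). Leaving those libraries out, ACLY was lower in CSF in both lines, by a small amount: -0.13 ± 0.04 in NALM-6 (adjusted p = 0.0352) and -0.22 ± 0.04 in REH (adjusted p = 0.00182). The same differences did not pass with only the library of the same line left out (limma, adjusted p = 0.684 in NALM-6 and 0.949 in REH).

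ACACA had 173, 188 and 186 CPM in NALM-6 CSF against 69.5, 189 and 207 CPM in NALM-6 RPMI. In REH it had 147, 148 and 66.5 CPM in CSF against 161, 175 and 181 CPM in RPMI, with no overlap of the media. The differences were 0.38 ± 0.40 log2 in NALM-6 and -0.60 ± 0.40 in REH (limma, adjusted p = 0.504 and 0.435). With those libraries left out the REH difference passed at -0.22 ± 0.06 (adjusted p = 0.0141) and the NALM-6 difference, -0.12 ± 0.06, did not (adjusted p = 0.156).

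SCD itself was not called in CSF. In NALM-6 the CSF libraries (374 to 401 CPM) lay between NALM-6 RPMI 1 (175 CPM) and the other 2 RPMI libraries (419 and 451 CPM), and CSF minus RPMI was 0.29 ± 0.29 log2 (limma, adjusted p = 0.481), or -0.15 ± 0.08 without the 2 libraries (adjusted p = 0.187). In REH both media were near the level of 3 reads, so neither a fold change nor a comparison of the lines' responses is given. ELOVL6 in NALM-6 followed the same order, with 0.26 ± 0.30 log2 (adjusted p = 0.531) and -0.18 ± 0.08 without the 2 libraries (adjusted p = 0.108). In REH every CSF value of ELOVL6 lay below every RPMI value, and the difference was -0.61 ± 0.30 (adjusted p = 0.248). It passed in 7 of 24 alternatives, and over all 24 it ran from -0.90 to -0.40. Among the 7 were the limma fit without the 2 libraries, at -0.54 ± 0.08 (adjusted p = 2.69e-04), and edgeR, at -0.76 (adjusted p = 0.0449).

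**Figure D4:**
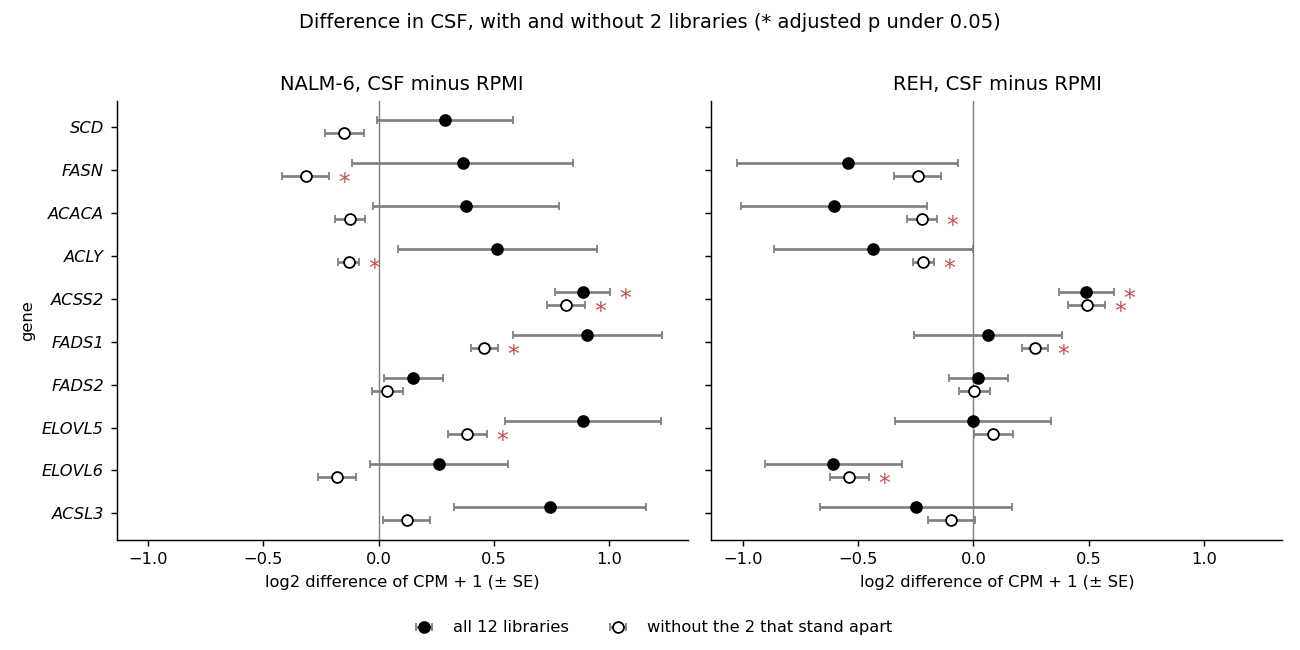
CSF minus RPMI in log2 of CPM + 1 (x axis) for each gene in NALM-6 and REH, with all 12 libraries (filled) and without the 2 that stand apart (open); bars are ± SE of the limma fit and a star marks an adjusted p under 0.05. SCD is left out in REH, where it had almost no reads. In NALM-6 the filled points of SCD, FASN, ACACA, ACLY and ELOVL6 lie above 0 and the open ones below it.

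The order of the 4 groups by mean level was clear of overlap at every step for ACSS2 alone of the 10 members, in the order REH CSF, REH RPMI, NALM-6 CSF and NALM-6 RPMI. For FADS2 both REH groups lay above both NALM-6 groups, and the media overlapped within each line. For ELOVL6 both NALM-6 groups lay above REH RPMI, and REH RPMI above REH CSF. For FASN, ACACA and ACLY every pair of neighbouring groups in the order overlapped.

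Per kb of transcript, which allows levels of different genes to be compared, ACLY was the highest member in NALM-6, with 113 ± 2.95 CPM per kb in CSF and 92.9 ± 52.6 in RPMI. SCD followed with 73.1 ± 2.86 in NALM-6 CSF, and in NALM-6 RPMI it averaged 64.9 ± 28.2, close to FADS2 at 64.7 ± 8.47 CPM per kb. These RPMI means include NALM-6 RPMI 1, where long transcripts were low. In that library SCD stood at 40.2% and FADS2 at 79.1% of the mean of the replicates. In REH, FADS2 had 106 ± 7.84 CPM per kb in CSF and 104 ± 4.73 in RPMI, and ACLY 87.1 ± 20.9 in CSF and 115 ± 1.41 in RPMI. The lowest members in NALM-6 were ELOVL6 (6.28 ± 0.35 CPM per kb in CSF) and ACSS2 (8.06 ± 0.53), and in REH SCD and ELOVL6.

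The tested genes whose levels followed SCD most closely over the 12 libraries (Pearson r of log2(CPM + 1)) were SNTB1 (r of 0.99978), BCAT1 (0.99969), DHX32, PGBD5 and PCOLCE2 (0.99936). All 5 averaged at most 0.116 CPM in REH in either medium, and BCAT1, an aminotransferase of branched-chain amino acids, averaged 301 CPM in NALM-6 CSF and 282 CPM in NALM-6 RPMI. The 12 points are 6 libraries of each line, and the likeness reflects 1 split between lines. Among the members, FASN and ACLY correlated with r of 0.94 over the 12 libraries and 0.19 over the 10 left without the 2 that stand apart, so that relation rests on those libraries. For ACACA and ACLY the values were 0.91 and 0.89. SCD and ELOVL6 (0.97 and 0.99) and ACSS2 and FADS2 (0.90 and 0.84) also stayed high. FASN and ACACA went from 0.82 to -0.11, and ACLY and ELOVL5 from 0.86 to -0.54. Each value mixes differences between lines and media, and shared regulation was not tested.

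Named regulators of the pathway other than MLX showed no called difference in CSF in either line with all libraries. SREBF1 had 130, 127 and 125 CPM in NALM-6 CSF against 89.7, 132 and 127 CPM in NALM-6 RPMI, and 202, 241 and 222 CPM in REH CSF against 236, 235 and 225 CPM in REH RPMI. SREBF2, SCAP, INSIG1, INSIG2 and MLXIP (the partner of MLX in sensing glucose) also missed the threshold in both lines, with differences from -0.19 to 0.56 log2 in NALM-6 and from -0.50 to -0.19 in REH. Some passed in alternatives, each time lower in CSF: SCAP in 4 and MLXIP in 3 of 24 in NALM-6, and INSIG1 in 6, MLXIP in 1 and SREBF2 in 1 of 24 in REH. With the 2 libraries left out those differences were -0.31 log2 for SCAP (adjusted p = 0.0160) and -0.42 for MLXIP (adjusted p = 6.60e-04) in NALM-6. In REH they were -0.43 for INSIG1 (adjusted p = 2.38e-04), -0.22 for MLXIP (adjusted p = 0.0265) and -0.12 for SREBF2 (adjusted p = 0.0389). Between the lines SREBF1 was higher in REH, by 0.79 ± 0.15 log2 in CSF (limma, adjusted p = 0.00166) and 1.01 ± 0.15 in RPMI (adjusted p = 3.27e-04), or 0.79 and 0.83 without the 2 libraries. Of the members called in both media, ACSS2 and FADS2 were also higher in REH, and SCD and ELOVL6 were lower. SCAP was lower in REH, with REH minus NALM-6 of -0.91 in CSF and -0.84 in RPMI (adjusted p = 4.39e-04 and 8.39e-04). Of 14 tested genes in the list of SREBP and ChREBP regulation, 0 were higher in CSF in NALM-6 and 0 lower, against 10.9% and 1.23% of all tested genes. In REH 0 were higher and 1 lower (MLX, -0.41 log2, adjusted p = 0.0480), against 13.2% and 1.71%. The MLX call held in 13 of 24 alternatives, and the difference was -0.46 without the 2 libraries.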

How the data were processed

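RNA from 12 libraries was measured by RNA-seq. Per the labels' protocols, stranded TruSeq mRNA libraries were made from RNA extracted with a Qiagen kit, and the tools listed in the submitters' processing notes are HISAT2 2.1.0, Trimmomatic 0.33, featureCounts, FastQC and edgeR, with the build GRCh38. Which annotation was counted, and whether by strand, is not given in the sources used here. A single table was deposited by the authors, in CPM (read counts scaled to 1000000 per library). Dividing by the value of 1 read gave whole reads for 100% of values (tolerance 0.01), 23412869 to 37146556 per library. Intervals are 95% exact and cover counting error only.

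The 14364 genes that reached 1 CPM in 3 or more libraries were fitted with limma 3.58.1 (R 4.3.3) on log2(CPM + 1), 1 mean per group over all 12 libraries, with Benjamini-Hochberg adjustment over all tested genes and a threshold of 0.05. A fold change on this scale understates the change of low genes. Within each line CSF was set against RPMI, the responses were compared by an interaction, and the lines were compared in each medium. The fit was tested on simulated data. Alternatives were the pseudocount, the filter, median-of-ratios and quantile scaling, the replicate number as a block within each line, each library left out, the 2 libraries that stand apart left out, each line alone, edgeR 4.0.16 with its quasi-likelihood test on the recovered reads and, added after seeing the data, a correction for transcript length with and without the block.

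Deviations from the group means correlated between same-numbered CSF and RPMI libraries by 0.36, 0.19 and 0.17 in NALM-6, above the 0.1 set as the bar for pairing, so the numbers were taken to pair those libraries. Differently numbered ones correlated by -0.37 to 0.23 (CSF 2 with RPMI 3), so the data do not tell numbers 2 and 3 apart. In REH the differently numbered CSF 3 and RPMI 1 correlated by 0.485. NALM-6 RPMI 1, which stands apart, also enters the deviations of its whole group. Passing the bar therefore does not show that same-numbered libraries share a culture. No response to CSF is given for a gene under 0.5 CPM in every library of a line, a rule added after seeing the data (SCD in REH and PLIN2 in NALM-6); it sets aside an interaction of PLIN2 that had passed the threshold. Transcript length is that of the APPRIS principal transcript in GENCODE release 29, which held 58542 of the 60617 gene IDs; the other 2075 count in the totals only. Promoter windows came from RefSeq (GRCh38.p14).

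The 10 genes and the further gene lists were chosen with earlier results of these data known. All 10 are named in each comparison, with 6 regulators (a further gene is not reported here), up to 4 called genes of each other list with the largest difference in each comparison of CSF with RPMI, and the 5 protein-coding genes most correlated with SCD. SCD5, VLDLR, the neighbours of SCD, FEN1 and the genes set beside SCD by level were chosen after their values were seen. The same holds for FADS3, PLIN2 and SREBF1 between the lines.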

Additional observations from a re-analysis of the deposited data

How the results depend on the processing

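The member counts in the comparisons of CSF with RPMI moved with the processing, and the between-line calls of SCD, ELOVL6 and ACSS2 held in all 21 alternatives in both media. In NALM-6 the count of members called was 1; it was 0 under quantile normalization, 5 without both libraries that stand apart, 3 with the length correction, 0 with the length correction and the replicate block, and 1 to 2 over the fits without a single library. In REH it was 1, and 0 with the replicate block, 5 without both libraries, 2 with edgeR, 2 with each line alone, 3 with the length correction, 0 with the length correction and the block, and 0 to 3 over the fits without a single library. In CSF the count between the lines was 4, and 8 without both libraries (4 to 8 over the fits without a single library). The main fit shares 1 estimate of the spread over all groups, so leaving out a library of 1 line also changes the adjusted p-values in the other. For ELOVL6, CSF minus RPMI in REH stayed at -0.61 log2 without NALM-6 RPMI 1. Its adjusted p was then 7.56e-04, against 0.248 with all libraries (limma). Beyond this and the smaller number of libraries in some fits, the causes of these moves were not tested.

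Signs that turned were all of differences that had not passed with all libraries. Some passed the threshold with the turned sign (limma). Without both libraries these were FASN and ACLY in NALM-6, FASN between the lines in CSF and ACACA between the lines in RPMI. With the length correction and no block they were ACACA in NALM-6 (adjusted p = 0.0253) and between the lines in RPMI (adjusted p = 0.00408). In NALM-6, without both libraries, CSF minus RPMI was -0.15 log2 for SCD, -0.32 for FASN, -0.12 for ACACA, -0.13 for ACLY, -0.18 for ELOVL6, -0.030 for SREBF1 and -0.090 for SREBF2. With the length correction, with or without the block, it was -0.29 for SCD, -0.35 for FASN, -0.35 for ACACA, -0.25 for FADS2, -0.38 for ELOVL6, -0.33 for SREBF1 and -0.13 for SREBF2. With edgeR it was -0.037 for SCD, -0.072 for FASN, -0.13 for FADS2, -0.061 for ELOVL6 and -0.13 for SREBF1. With median-of-ratios scaling it was -0.0052 for SCD, -0.14 for FADS2, -0.021 for ELOVL6 and -0.15 for SREBF1, and with quantile normalization -0.14 for ELOVL6 and -0.027 for SREBF1. Over the fits without a single library the range was -0.15 to 0.53 for SCD, -0.32 to 0.73 for FASN, -0.12 to 0.66 for ACACA, -0.13 to 0.84 for ACLY, -0.18 to 0.52 for ELOVL6, -0.030 to 0.25 for SREBF1, -0.42 to 0.13 for MLXIP and -0.090 to 0.70 for SREBF2. For SCD, FASN, ACACA, ACLY, ELOVL6, SREBF1 and SREBF2 the sign turned without NALM-6 RPMI 1.

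In REH, CSF minus RPMI turned for FADS1 with median-of-ratios scaling (-0.012), for FADS2 with median-of-ratios scaling (-0.055), edgeR (-0.041) and the length correction (-0.020), and for ELOVL5 with quantile normalization (0.034) and without both libraries (0.087). Without a single library the range was -0.075 to 0.27 for FADS1, -0.022 to 0.082 for FADS2 and -0.14 to 0.087 for ELOVL5. The difference between the responses turned for FASN without both libraries (0.073) and with the length correction (0.017), for ACSS2 with quantile normalization (0.015), and for FADS2 with median-of-ratios scaling (0.088), quantile normalization (0.049), edgeR (0.089) and the length correction (0.23).

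Between the lines in RPMI, REH minus NALM-6 turned without both libraries for ACACA (-0.20), ACLY (-0.10), FADS1 (-0.13) and ACSL3 (-0.0086), with edgeR for ACACA (-0.0156), and with the length correction for ACACA (-0.39) and FADS1 (-0.15). Without a single library the range was -0.20 to 0.58 for ACACA, -0.10 to 0.87 for ACLY, -0.13 to 0.54 for FADS1 and -0.0086 to 0.94 for ACSL3. In CSF it turned for FASN with quantile normalization (0.059), without both libraries (0.27) and with the length correction (0.22), and ran from -0.30 to 0.27 without a single library.

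With the replicate block the NALM-6 count of members stayed at 1 and the REH count went to 0. The lost REH call was that of ACSS2 (0.49 log2, limma, adjusted p = 0.101). Same-numbered REH libraries correlated by -0.46, 0.24 and -0.32, so the numbers were not taken to pair them. The block also leaves fewer residual degrees of freedom, 4 in place of 8. Why the call was lost was not tested. The block changed no other member call. Between the lines no paired analysis was possible because replicate numbers are blocks within a line. Where a replicate was left out, its group had 2 libraries that are assumed to vary like the others. Among all tested genes, median-of-ratios scaling moved the calls in NALM-6 to 1073 higher and 341 lower, against 1565 and 177, and put their median at 0.03 log2, against 0.25. At these depths SCD in REH cannot be told from a few reads.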

Other observations

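Of 19 tested genes of glycerolipid synthesis and lipid droplets, 3 were called higher in CSF in REH and 0 lower, where 13.2% of all tested genes were called higher and 1.71% lower. In NALM-6 1 was called higher and 0 lower, against 10.9% and 1.23% of all tested genes. The list is thus near the background in REH and below it in NALM-6, and single genes are given as values. In REH the called genes were PLIN2, a coat protein of lipid droplets (0.81 ± 0.14 log2, limma, adjusted p = 0.00243), GPAT3, an acyltransferase at the start of triglyceride synthesis (0.83 ± 0.13, adjusted p = 0.00156), and PNPLA2, the main triglyceride lipase (0.64 ± 0.16, adjusted p = 0.0174). PLIN2 had 113, 118 and 143 CPM in REH CSF against 76.6, 67.3 and 68.1 CPM in REH RPMI. In NALM-6 no library exceeded 0.275 CPM of PLIN2, so no response to CSF is given there. GPAT3 was low, with 2.39, 1.45 and 1.73 CPM in REH CSF against 0.349, 0.774 and 0.694 CPM in REH RPMI. It reached 1 CPM in the REH CSF libraries alone, and so was tested only because it was high in that group. Its call, and its place among the 3 called, are therefore a description and no support. PNPLA2 had 89.7, 118 and 133 CPM in REH CSF against 79.0, 69.5 and 66.5 CPM in REH RPMI. In NALM-6 the called gene was ABHD5, the coactivator of that lipase, with 29.7, 29.2 and 31.9 CPM in CSF against 13.6, 21.0 and 18.8 CPM in RPMI (0.76 ± 0.18, adjusted p = 0.0210). The call held in 22 of 24 alternatives for PLIN2, 21 of 23 for GPAT3, 16 of 24 for PNPLA2 and 15 of 24 for ABHD5. The ABHD5 call was lost with the replicate block (limma, adjusted p = 0.0616), which was taken to apply in NALM-6. Without the 2 libraries that stand apart the differences were 0.70 for PLIN2, 0.85 for GPAT3, 0.52 for PNPLA2 and 0.58 for ABHD5, and each passed.

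Among other desaturation and elongation genes 1 of 18 tested was called higher in REH CSF and 0 lower, against 13.2% and 1.71% of all tested genes. It was FADS3, with 67.7, 83.9 and 88.8 CPM in REH CSF against 40.8, 41.1 and 36.5 CPM in REH RPMI (0.996 ± 0.18 log2, adjusted p = 0.00350, called in 24 of 24 alternatives, and 0.92 without the 2 libraries). No gene of this list was called in NALM-6 with all libraries. Between the lines FADS3 was lower in REH, with REH minus NALM-6 of -1.56 ± 0.18 in CSF and -2.45 ± 0.18 in RPMI (adjusted p = 3.34e-05 and 9.21e-07), or -1.64 and -2.30 without the 2 libraries. VLDLR, the receptor for very-low-density lipoprotein, was almost absent from REH, with 0.274, 0.171 and 0.449 CPM in CSF against 199.6, 205 and 200.5 CPM in NALM-6 CSF, and 0.279, 0.246 and 0.0662 CPM in RPMI against 91.2, 225 and 233 CPM in NALM-6 RPMI. PLIN2 was higher in REH, by 6.89 log2 in CSF and 6.02 in RPMI, or 6.78 and 6.12 without the 2 libraries.

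For the counts that follow, 13.2% of all tested genes were called higher in CSF in REH and 10.9% in NALM-6, and none of these lists had over 1 gene more than that share. Of 21 tested cholesterol genes 2 were higher in REH CSF, ACAT2 (0.72 log2, adjusted p = 0.0179) and TM7SF2 (0.97, adjusted p = 0.0404), and 0 were called in NALM-6. Of 10 other acyl-CoA synthetases 1 was higher in REH CSF, SLC27A3 (0.71, adjusted p = 0.0149), and of 10 liver X receptor genes 1, PLTP (0.64, adjusted p = 0.00532), which averaged only 1.01 CPM in REH CSF and 0.286 CPM in REH RPMI. Of 19 fatty acid oxidation genes 1 was higher in each line, CPT2 in NALM-6 (0.65, adjusted p = 0.0378) and HADH in REH (0.37, adjusted p = 0.0489). Of 7 NADPH-supplying genes 1 was higher in REH, IDH2 (0.62, adjusted p = 0.00594), and of 7 fatty acid uptake genes 0 were called in either line. The calls held in 15 of 24 alternatives for ACAT2 and SLC27A3, 21 for PLTP, 20 for IDH2, 10 for TM7SF2, 9 for CPT2 and 7 for HADH. The CPT2 call was lost with the replicate block (adjusted p = 0.104). Each of the 7 passed without the 2 libraries, with 0.56 log2 for ACAT2, 0.81 for TM7SF2, 0.58 for SLC27A3, 0.65 for PLTP, 0.42 for CPT2, 0.29 for HADH and 0.53 for IDH2.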
